A study of Homo sapiens with 10 samples.

Results

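The response of HeyA8 cells to siGGCAGU, an siRNA duplex that carries the 6mer seed of miR-34a-5p, was described 48 h after transfection. The rule took the libraries titled si34a at 48 h and set them against those of the non-targeting duplex siNT1 at the same time, which gave 4 of the 10 libraries of the series, 2 for each duplex. HeyA8 is an established line of human ovarian cancer. Wells of cells received 10 nM of siRNA, the medium was changed at 24 h, and the cells were lysed at 48 h. A further group of 2 libraries, siGGGGGC at 48 h, served as a comparison with another toxic seed, and the remaining 4 libraries, siNT1 and siGGGGGC at 24 h, entered the fit only to estimate the spread. The passenger strand of both toxic duplexes was chemically modified so that the guide strand is the one loaded. The label of the control group reads siNT1 S2'OM, and the methods list the sense strand of siNT1 with the same modified first bases. Every group carried a transfected duplex, so cells without one are not part of the comparison. The duplicates were wells of 1 cell line, so the p-values measure the spread between wells and libraries.

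A guide strand or microRNA is bound by an Argonaute protein and pairs with messenger RNAs mainly through its seed, which begins at the second base from the 5′ end. Pairing in the 3′ UTR recruits TNRC6 proteins and the deadenylation machinery, and the messenger RNA is destabilised. miR-34a-5p is a microRNA that p53 induces, and it is known for lowering cyclins, cyclin-dependent kinases, MET, MYC and other growth genes. Other short RNAs with G-rich seeds are known to kill cancer cells through messenger RNAs that cells need to survive.

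Of the mature human microRNAs in the RefSeq table (GRCh38.p14), 4 carried GGCAGU at positions 2 to 7. They are printed 5′ to 3′ with positions 2 to 8 in capitals, because those bases set which target words the duplex shares with each of them.
hsa-miR-34a-5p: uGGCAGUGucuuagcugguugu
hsa-miR-449a: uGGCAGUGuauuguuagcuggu
hsa-miR-449b-5p: aGGCAGUGuauuguuagcuggc
hsa-miR-548au-3p: uGGCAGUUacuuuugcaccag
The first 3 share all of positions 2 to 8. The study also names miR-34b and miR-34c in the family of miR-34a-5p and miR-449a. The search returned neither, so these 4 may not be all the microRNAs with this seed. miR-34a-5p lies on chromosome 1 (9151735 to 9151756, minus strand), miR-449a and miR-449b-5p lie on chromosome 5 (55170586 to 55170607 and 55170706 to 55170727, minus strand), and miR-548au-3p lies on chromosome 9 (93594874 to 93594894, plus strand). The word that pairs with positions 2 to 7 is ACTGCC. The word that pairs with positions 2 to 8 is CACTGCC for miR-34a-5p and TACTGCC for siGGCAGU, whose guide strand is given in the methods of the study.

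Total counts were 28034736 and 42428986 for siNT1 and 21198854 and 32113454 for siGGCAGU. The small RNA genes RN7SL2 and SNORD3A took 19.8% to 32.0% of these libraries. In each group replicates differed by more than counting noise, and log2 differences between 2 replicates had an SD over genes of 0.25 for siNT1 and 0.29 for siGGCAGU. The 3 other groups, which shared the estimate of spread in the fit, had SDs between 0.18 and 0.21, below both compared groups. HeyA8 cells had high counts of the mesenchymal genes VIM and FN1 and of the keratins KRT7, KRT8 and KRT18. The epithelial genes CDH1, CLDN3, CLDN4, MUC1 and ESRP1 reached at most 26 reads in any of the 4 libraries, as did the ovarian markers MUC16, SOX17 and EMX2, while PAX8 had at least 695 reads. The 6 leukocyte markers had at most 6 reads. VIM fell (-0.45 ± 0.094 (adjusted p = 0.000805) on the log2 scale), with normalised counts of 28216 and 25182 with siGGCAGU and 35559 and 37499 with siNT1. Of the mesenchymal list, SNAI2 and S100A4 were called higher, S100A4 with 14 to 38 reads. At an adjusted p below 0.05 from edgeR, 4 of the 8 mesenchymal genes rose and 2 fell, VIM among them. The lowest log2 fold change of this list was -0.97. FAP was the only one of the 5 fibroblast markers that was tested and was called higher. KDR and PECAM1 of the endothelial list were called higher, where no gene had more than 28 reads. EPCAM (8 to 51 reads) and WT1 (31 to 191 reads) were called lower. The genes of these lists outside the rule were named after their values were seen, and the part of these cell types in the results was not tested.

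siGGCAGU changed the level of many genes at 48 h. DNA replication, mitosis and nucleotide genes fell, and cytokine, interferon-stimulated and antioxidant genes rose. Of 16905 genes tested with edgeR, 3430 (20.3%) were called, with an adjusted p below 0.05 and a log2 fold change beyond 1 in either direction. Of these, 1803 (10.7%) were called higher and 1627 (9.62%) lower than with siNT1. Without the bound on size, 4699 genes rose and 4207 fell. The largest changes were rises, with 146 called genes beyond 3 on the log2 scale upwards and 41 downwards. Both siGGCAGU libraries lay beyond both siNT1 libraries in 1798 of the genes called higher and in 1625 of those called lower. With 2 libraries on each side, an exact permutation of labels cannot give a p below 0.3333 for a single gene, so the adjusted p-values rest on the spread that the fit shares across all genes and groups. Counts measure shares of the RNA sequenced, so a fall in RNA per cell and a fall in the number of cells that express a gene cannot be told apart.

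**Figure D1:**
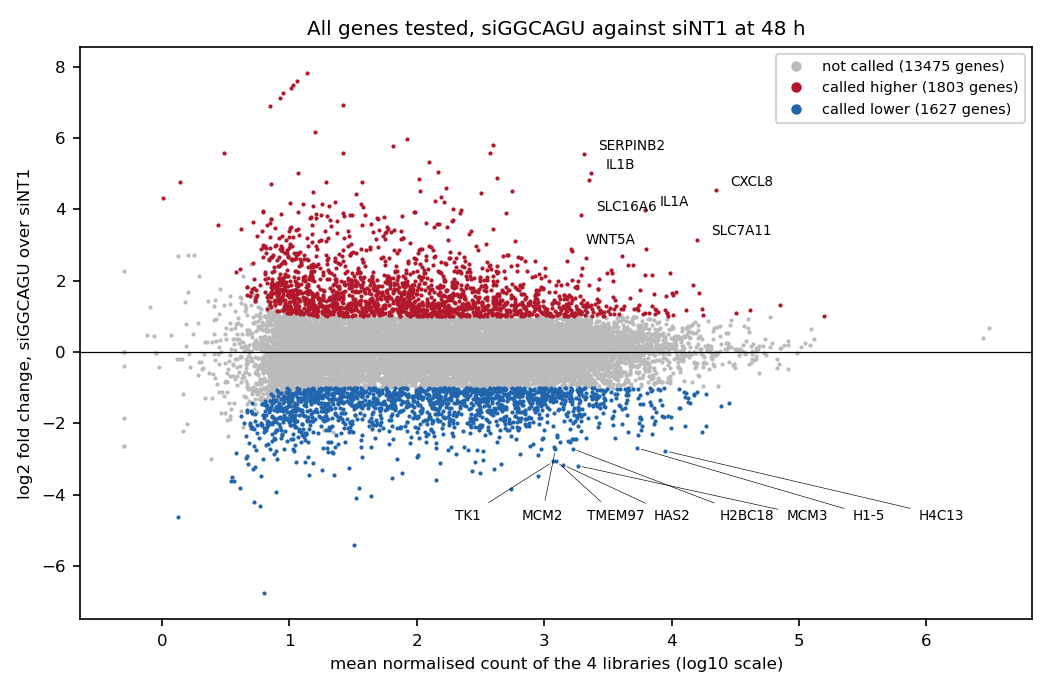
Log2 fold change of siGGCAGU over siNT1 at 48 h (vertical axis) against the mean normalised count of the 4 libraries (horizontal axis, log10 scale), each point a gene, red and blue for genes called higher (1803) and lower (1627). The rises reach further than the falls, and the labelled genes are those of the rule for large changes at a mean normalised count of at least 1000.

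The largest falls among abundant genes were in DNA replication and its supply. MCM3 (ENSG00000112118, hg38 chromosome 6, 52264014 to 52284881) encodes a subunit of the replicative helicase. Its normalised counts, which are counts scaled by TMM library size, were 382 and 348 with siGGCAGU and 3239.5 and 3393 with siNT1. Both siGGCAGU libraries were far under both controls, with a log2 fold change of -3.19 ± 0.094 (adjusted p = 4.16e-12), where the error is the standard error and p comes from the quasi-likelihood test of edgeR, adjusted over all genes tested. TK1 (ENSG00000167900, hg38 chromosome 17, 78174091 to 78187233) encodes thymidine kinase and had 244 and 258 normalised counts against 2102 and 2131, a log2 fold change of -3.07 ± 0.1 (adjusted p = 8.22e-12). MCM2, another helicase subunit, was at 324 ± 33.9 (mean ± SD, n = 2) against 2130.3 ± 134, a log2 fold change of -2.73 ± 0.11 (adjusted p = 4.53e-11). UHRF1, which keeps DNA methylation through replication, MKI67, the proliferation marker, and UBE2C, which loads ubiquitin for the anaphase-promoting complex, fell with log2 fold changes of -2.65, -2.52 and -2.50. The siNT1 libraries of MKI67 differed, at 3463 and 1978 normalised counts, but both lay above the siGGCAGU libraries at 428 and 513.

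The largest falls also held a hyaluronan synthase, a sterol regulator and histone genes. HAS2, the hyaluronan synthase, had 276 and 289 normalised counts against 2385 and 2697 and a log2 fold change of -3.17 ± 0.11 (adjusted p = 8.22e-12). TMEM97, the sigma-2 receptor of sterol regulation, had 263 and 270.2 against 2089.8 and 2366 and a log2 fold change of -3.06 ± 0.097 (adjusted p = 6.28e-12). PRR11, a cell cycle gene, fell with a log2 fold change of -2.52. The histone genes H4C13, H2BC18 and H1-5 fell with log2 fold changes of -2.78, -2.72 and -2.69, and because histone copies share sequence their values are uncertain.

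The largest rises were in secreted inflammatory proteins. SERPINB2 (ENSG00000197632, hg38 chromosome 18, 63871692 to 63903888), an inhibitor of plasminogen activators, had 4292 and 3716 normalised counts with siGGCAGU and 83.4 and 86.3 with siNT1. It rose by 5.55 ± 0.15 (adjusted p = 1.61e-12) on the log2 scale. IL1B (ENSG00000125538, hg38 chromosome 2, 112829751 to 112836816), the cytokine interleukin 1 beta, was at 4539.9 and 4483 against 136 and 143, a log2 fold change of 5.01 ± 0.1 (adjusted p = 9.65e-14). CXCL8, the neutrophil chemokine interleukin 8, reached 49211 and 36612 normalised counts from 1642 and 2078. In all of these genes the groups lay far apart. CXCL8 and IL1A rose by 4.53 and 3.99, the monocarboxylate transporter SLC16A6 by 3.83, the cystine transporter SLC7A11 by 3.15 and the Wnt ligand WNT5A by 2.90 on the log2 scale. NNMT, a methyltransferase for nicotinamide, GABARAPL1, of autophagosomes, AKR1C1, an aldo-keto reductase, and the pentraxin PTX3 rose by 2.88, 2.83, 2.68 and 2.63.

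**Figure D2:**
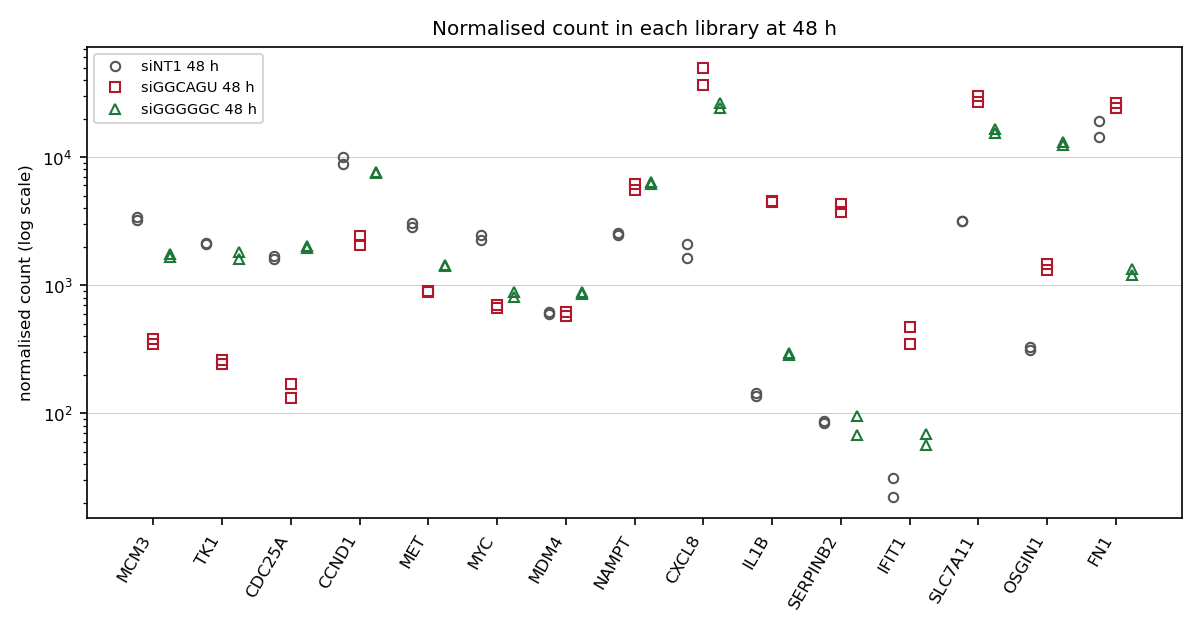
Normalised count (vertical axis, log scale) of 15 named genes in each library at 48 h, 2 points per group, with circles for siNT1, squares for siGGCAGU and triangles for siGGGGGC. MCM3 and TK1 were lowest with siGGCAGU, IL1B and SERPINB2 were highest with it, and the points of MDM4 for siNT1 and siGGCAGU overlapped.

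To ask whether messenger RNAs with a seed match were lower, the longest annotated 3′ UTR of each protein-coding gene tested was searched for ACTGCC. Of 12397 genes with a 3′ UTR, 4531 held the word. Their median log2 fold change was -0.05, against 0.08 for the 7866 genes without it, a shift of -0.13. Between single libraries, 1 of each group, the shift was between -0.10 and -0.19, and between replicates of the 5 groups of the series it was between -0.02 and 0.06. Genes are not replicates, so this is a description with no test. Of the genes with a match 499 were called lower and 404 (8.92%) higher, and of the genes without one 683 (8.68%) and 909 (11.6%).

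The shift grew with the length of the match. The classes were set by the best site of a gene, which was the 6mer ACTGCC, the 7mer-A1 ACTGCCA, the 7mer-m8 TACTGCC or the 8mer TACTGCCA. The medians of genes with a 6mer, a 7mer-A1, a 7mer-m8 and an 8mer were shifted by -0.07, -0.13, -0.17 and -0.30. Of the 386 genes with an 8mer, 69 (17.9%) were called lower and 31 (8.03%) higher. The 3′ UTRs of this class were also longer, with a median of 3604.5 bases against 1059.5 in genes without a match. With the trend on length and GC content removed, the shifts of these classes were -0.03, -0.09, -0.16 and -0.29. Within 4 classes of 3′ UTR length with equal numbers of genes the shift of genes with any match lay between -0.11 and -0.20. Against siGGGGGC, a comparison with the same siGGCAGU libraries, the shifts of these classes before the trend was removed were 0.0057, -0.07, -0.12 and -0.23, and that of genes with any match was -0.06.

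**Figure D3:**
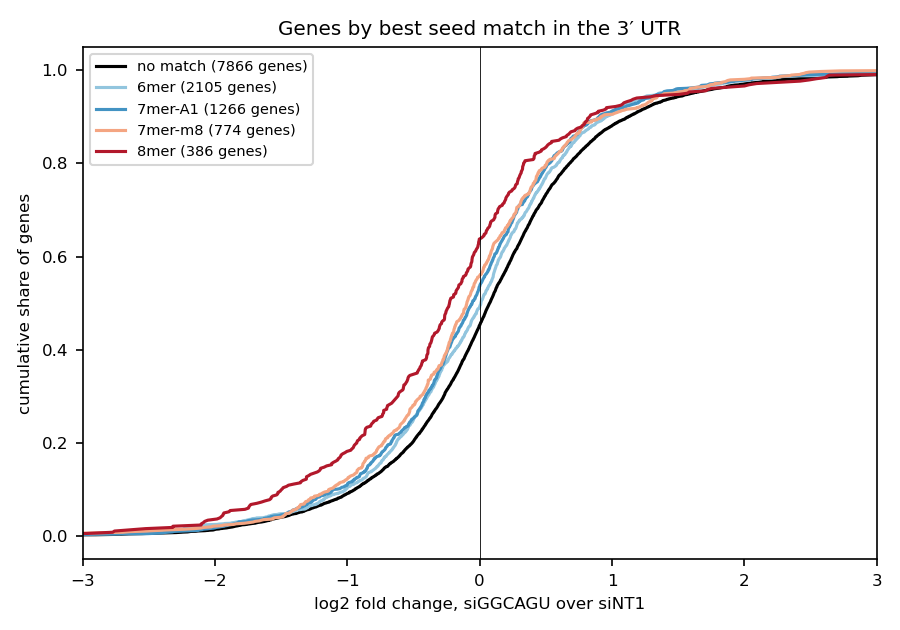
Cumulative share of genes (vertical axis) by log2 fold change of siGGCAGU over siNT1 (horizontal axis, cut at 3 either way), with a line per class of the best seed match in the longest 3′ UTR. The line of genes with an 8mer (386 genes) lies furthest to the left at the median, and that of genes without a match (7866 genes) furthest to the right.

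The base that faces guide position 8 separated the match of the duplex from that of miR-34a-5p. Among genes with a single ACTGCC, the 538 with TACTGCC were shifted by -0.21, and the 1153 with CACTGCC, the word of miR-34a-5p, by -0.06. Of these 12.8% and 9.37% were called lower. Genes with AACTGCC (691) were shifted by -0.06 and those with GACTGCC (541) by -0.13. The order of T before C held also among single matches followed by A, with -0.30 for 180 genes and -0.16 for 342 genes, and among those not followed by A, with -0.18 for 357 genes and -0.03 for 810 genes.

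Matches outside the 3′ UTR were examined in genes without one there. The 2993 genes with ACTGCC in the coding sequence were shifted by -0.13 against the 4873 without it, and the 275 genes with the 8mer in the coding sequence by -0.28. Of these 275 genes 16.4% were called lower. Against siGGGGGC the shifts of these coding classes were -0.025 for any match and -0.128 for the 8mer. No trend on coding length or GC content was removed. The 406 genes with the word in the 5′ UTR and in no other region were shifted by 0.04.

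The 8 largest falls among called genes with an 8mer in the 3′ UTR and a mean normalised count of at least 200 were in CDC25A, KLHL23, PHF19, PRR11, CAV1, TYMS, TUBB and CCND1. Their sites are printed 5′ to 3′ on the transcript strand, with the 8mer in capitals, because they show the longest match next to the largest falls (hg38, GENCODE release 44).
CDC25A: ttaggttgaaaTACTGCCAttctaggtagg
KLHL23: gtgaagtattaTACTGCCAttaaaataatt
PHF19: aatagctgcatTACTGCCAactgaccttat
PRR11: tgcaaagctgcTACTGCCAttgtaccagtg
CAV1: agttagtggatTACTGCCAttcacttcata
TYMS: tgttcattctgTACTGCCActtatctgctc
TUBB: ggagtggtgtaTACTGCCAcatcagtgttt
CCND1: acaatgtcataTACTGCCAtgtactagttt
The 8mers lie at chr3:48158423-48158430 (minus strand) in CDC25A, chr2:169751631-169751638 (plus) in KLHL23, chr9:120855778-120855785 (minus) in PHF19, chr7:116559777-116559784 (plus) in CAV1, chr18:673518-673525 (plus) in TYMS, chr6:30725196-30725203 (plus) in TUBB and chr11:69653357-69653364 (plus) in CCND1. The 3′ UTR of PRR11 held 2 copies, at chr17:59205126-59205133 and chr17:59206463-59206470 (plus), with the same flanking bases, and 4 copies of ACTGCC in all.

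Of these genes CDC25A, the phosphatase that activates CDK2 and CDK1, fell most. It had 168 and 132 normalised counts with siGGCAGU and 1599 and 1678 with siNT1, a log2 fold change of -3.47 ± 0.12 (adjusted p = 8.22e-12). CCND1, cyclin D1, had 2052 and 2406 against 10006 and 8834, a log2 fold change of -2.08 ± 0.1 (adjusted p = 2.51e-10). TYMS, thymidylate synthase, had 115 and 152 against 649.8 and 524, a log2 fold change of -2.10 ± 0.14 (adjusted p = 7.87e-09). In each of the 3 the siGGCAGU libraries lay under both controls. CAV1, the coat protein of caveolae (-2.32 on the log2 scale), TUBB, a beta tubulin (-2.09), PHF19, a Polycomb protein (-2.64), KLHL23 (-2.77) and PRR11 (-2.52) fell too. Many of the largest falls held no match in the longest 3′ UTR. Among the 12 largest falls in abundant genes, MCM3, HAS2, MCM2, UHRF1, UBE2C and the 3 histone genes had none, TK1 and TMEM97 had a 6mer, MKI67 a 7mer-m8 and PRR11 an 8mer. Among the 12 largest rises in abundant genes, SERPINB2, IL1B and AKR1C1 held a 6mer as best site, NNMT a 7mer-A1 and the other named genes none.

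Known targets of miR-34a were mostly lower. Of a list of 40 genes from general knowledge of this microRNA 36 were tested, of which 19 were called lower and 1, NAMPT, higher, with a median log2 fold change of -1.02 beside 0.02 over all genes tested. MYCN, PDGFRA, INHBB and KIT had too few counts. The share called was 55.6%, against 20.3% of all genes. CDK4, the kinase of cyclin D, fell most, with 322 and 296 normalised counts against 1783 and 1483 and a log2 fold change of -2.41 ± 0.12 (adjusted p = 2.88e-10), although its longest 3′ UTR held no ACTGCC. The receptor tyrosine kinase MET had 894 and 883 against 3081 and 2855, a log2 fold change of -1.74 ± 0.084 (adjusted p = 2.44e-10). The transcription factor MYC had 661 and 696 against 2441 and 2249.7, a log2 fold change of -1.79 ± 0.088 (adjusted p = 3.14e-10). Both genes held 6mers only, and in both the groups did not overlap.

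By role, the cell cycle genes of the list CCND1, CCNE2 and CDK6 were at -2.08, -1.58 and -1.04, all called. The E2F genes E2F3 and E2F5 were at -0.66 and -0.25, and E2F5 (adjusted p = 0.134), which held an 8mer and 3 matches, did not pass. Among receptors and signalling genes, NOTCH1 (-1.13), NOTCH2 (-1.22), AXL (-1.14), IL6R (-1.27), MAP2K1 (-1.29) and LEF1 (-1.75) were called lower. RRAS (-0.82) fell by less. JAG1 (-0.70), AREG (-0.75), PDGFRB (-0.90), CSF1R (0.27) and SNAI1 (-0.19) did not pass, and these 5 had the fewest counts of the list beside LEF1. Of the regulators of transcription and chromatin, FOSL1 (-1.60), FOXP1 (-1.06), MTA2 (-1.02) and the deacetylase SIRT1 (-1.02) were called lower. YY1 (-0.85), HDAC1 (-0.76) and ZNF281 (-0.38) fell by less, ZNF281 not without siGGCAGU replicate 1 (adjusted p = 0.0877). BCL2, which blocks apoptosis, was at -1.48, LDHA of glycolysis at -1.11 and ACSL1, an acyl-CoA synthetase, at -1.01, all called. The immune checkpoint ligand CD274 fell with a log2 fold change of -0.73. The hyaluronan receptor CD44, with an 8mer, was at -0.45, and without siNT1 replicate 1 its adjusted p was 0.219.

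Several listed genes with long matches did not fall. MDM4, an inhibitor of p53, held 8 copies of ACTGCC with an 8mer among them and had 579 and 618 normalised counts with siGGCAGU and 593 and 612 with siNT1. The groups overlapped and the log2 fold change was -0.01 ± 0.09 (adjusted p = 0.949). NAMPT, of NAD synthesis, held a 7mer-m8 and rose from 2469 and 2572 to 6148 and 5559 normalised counts, a log2 fold change of 1.21 ± 0.094 (adjusted p = 3.86e-08). HMGA2, a chromatin protein with a 7mer-m8, rose from 3113 and 2954 to 4574 and 4589, a log2 fold change of 0.59 ± 0.08 (adjusted p = 1.48e-05). PPP1R10 rose by 0.36, and without siGGCAGU replicate 1 its adjusted p was 0.0534.

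**Figure D4:**
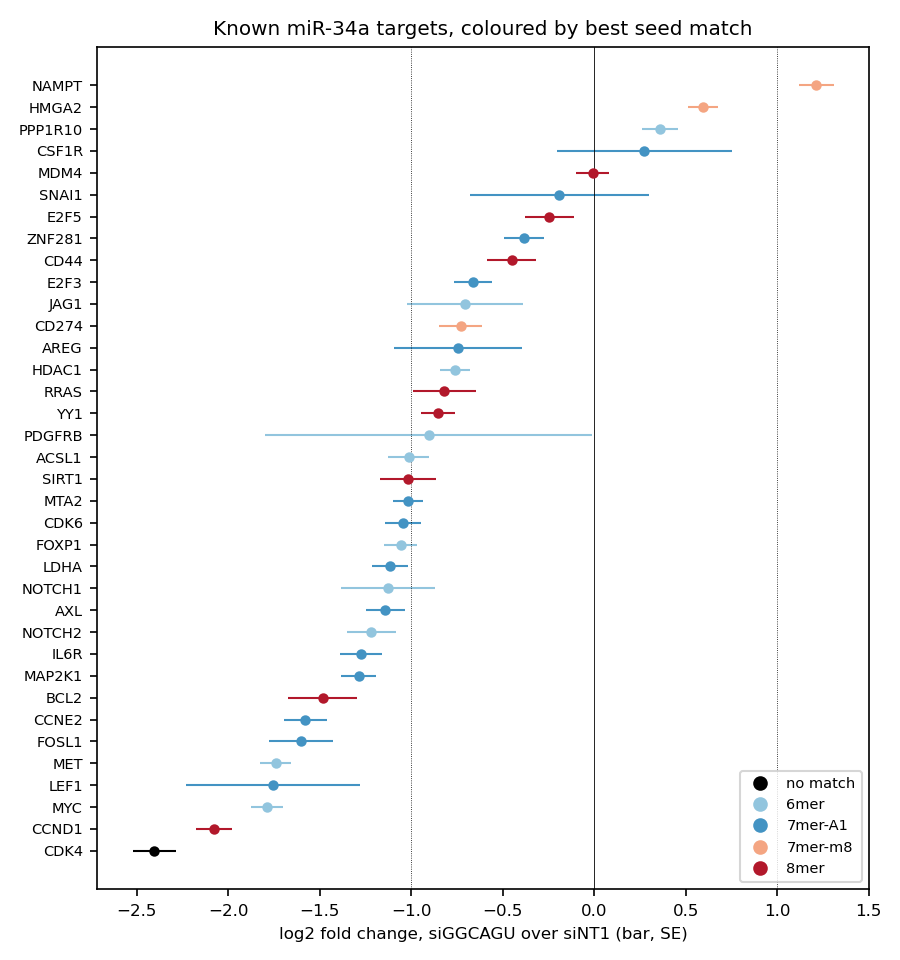
Log2 fold change of siGGCAGU over siNT1 (horizontal axis, bars for the standard error) of the 36 known miR-34a targets tested (vertical axis), coloured by the best seed match in the longest 3′ UTR. CDK4, without a match, lies lowest, and MDM4, with an 8mer, lies at 0.

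Among Argonaute and processing genes, 2 of 12 were called, both higher (16.7%, near the 20.3% of all genes tested), and the median log2 fold change was -0.11. AGO4, an Argonaute protein, was at 266 and 305 normalised counts with siGGCAGU and 104 and 114 with siNT1, a log2 fold change of 1.39 ± 0.14 (adjusted p = 4.88e-07). TNRC6B, an Argonaute partner in silencing, was at 1739 and 1767 against 729.6 and 613, a log2 fold change of 1.39 ± 0.098 (adjusted p = 1.41e-08), and held 5 matches. Both lay clear of the controls. AGO3 rose by 0.62. XPO5, which exports precursors from the nucleus, DGCR8, of the Microprocessor, and DICER1 fell with log2 fold changes of -0.96, -0.88 and -0.41. AGO1 (-0.09), AGO2 (0.08), DROSHA (-0.22), TARBP2 (-0.11), TNRC6A (-0.22) and TNRC6C (-0.11) did not pass. For AGO1, AGO2 and DROSHA the siNT1 replicates differed. Without siNT1 replicate 2 AGO1 was at -0.26 and DROSHA at -0.40, and without siNT1 replicate 1 AGO2 was at 0.39, all with an adjusted p below 0.05. TNRC6A passed without siNT1 replicate 2 (-0.31) or siGGCAGU replicate 2 (-0.36), with RLE size factors (-0.24) and with no filter (-0.30).

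Chromosome duplication requires that helicase subunits and origin factors are loaded before S phase. Of 52 DNA replication genes 38 were called lower (73.1%, beside 9.62% of all genes), and the median log2 fold change was -1.46. With the bound on size left out, 45 fell and 2 rose. All 6 subunits of the MCM helicase were called lower, among them MCM3 and MCM2 described above. GMNN, which holds back relicensing, was at 201 and 223 normalised counts against 1567 and 1574, a log2 fold change of -2.88 ± 0.098 (adjusted p = 8.22e-12). MCM10, which starts unwinding, was at 226 and 242 against 1397 and 1418, a log2 fold change of -2.58 ± 0.093 (adjusted p = 1.67e-11). RPA1 (0.09), RPA3 (-0.02), ORC3 (-0.01), POLE3 (-0.08) and POLE4 (-0.26) did not pass, and ORC4 rose by 0.29, though its adjusted p was 0.0565 without siGGCAGU replicate 1, 0.125 with only the libraries compared and 0.21 with no filter. POLD4, a small polymerase delta subunit named after its values were seen, rose by 0.88, from 49.5 and 56.3 to 98.5 and 97.2 normalised counts. Of the 52 genes, 8 held ACTGCC in the 3′ UTR (15.4%, against 36.5% of all genes with a 3′ UTR), and their median was -1.97 beside -1.36 for the others. Medians of genes with a match, whose number is given first, were also lower in 3 lists. These were mitosis (11 genes, -2.06 beside -1.58), nucleotide synthesis (11 genes, -0.93 beside -0.84) and histone supply (2 genes, -1.31 beside -1.28). Medians with a match were higher in homologous recombination (11 genes, -1.06 beside -1.47), the E2F and RB family (6 genes, -0.26 beside -0.79) and cyclins, CDKs and regulators (9 genes, -1.045 beside -1.16).

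Nucleotide synthesis genes were called in the lower direction alone. Of 29 nucleotide synthesis genes 12 were called lower (41.4%, beside 9.62% of all genes), with a median of -0.86. Besides TK1 and TYMS, IMPDH1, of guanine nucleotide synthesis, was at 109.7 and 127 normalised counts against 549 and 482 (log2 fold change -2.11), and SHMT1, of the folate cycle, at 86 and 127 against 415 and 419 (-1.93). Of the genes that supply and deliver histones 7 of 10 were called lower (70.0%), with a median of -1.31. CHAF1A, of chromatin assembly factor 1, was at 177 and 245 normalised counts against 912 and 808, its partner CHAF1B (-1.84) and ASF1B (-1.91) fell, whereas ASF1A rose by 0.71. NASP fell with a log2 fold change of -1.49, with siGGCAGU libraries that differed, at 1386 and 2642 normalised counts.

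Cyclins, kinases and the E2F family control entry into S phase. Of 23 cyclins, CDKs and regulators 14 were called lower and 1 higher (65.2% called, against 20.3% of all genes tested), with a median of -1.16. The gene called higher was CDKN1C (1.93, named after its values were seen). CCNA2, cyclin A2, was at 597 and 515 normalised counts against 2848 and 3127, a log2 fold change of -2.43 ± 0.1 (adjusted p = 6.44e-11). CDC25A, CDK4 and CCND1 are given above. The inhibitor CDKN1B rose by 0.38. In the E2F and RB family 6 of 18 were called lower (33.3%, beside 9.62% of all genes), with a median of -0.71. MYBL2, which drives late cell cycle genes, was at 43.6 and 61.7 normalised counts against 641 and 517 and E2F1 at 142 and 188 against 716 and 669, log2 fold changes of -3.40 and -2.04. RBL1 and LIN9 fell with log2 fold changes of -1.57 and -1.04. E2F7 (0.05) and RBL2 (0.07) did not pass. The lowest log2 fold change of the E2F and RB family was -3.54.

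Mitosis genes held the highest share called lower among the lists of more than 10 genes. Of 45, 40 were called lower (88.9%, beside 9.62% of all genes), with a median of -1.61. SPC25, of the NDC80 complex at kinetochores, was at 54.9 and 73 normalised counts against 439 and 446, a log2 fold change of -2.75 ± 0.15 (adjusted p = 7.33e-10). NCAPH, of condensin, was at 189.5 and 172 against 944 and 891, a log2 fold change of -2.35 ± 0.1 (adjusted p = 9.46e-11), and INCENP, of the chromosomal passenger complex, fell with a log2 fold change of -2.20. The kinetochore gene MIS12 rose by 0.37, but without siNT1 replicate 1 or siGGCAGU replicate 1 it did not pass (adjusted p = 0.0972 and 0.0602). In repair of breaks by homologous recombination 20 of 28 genes were called lower (71.4%), with a median of -1.27. RAD54L, XRCC2, FANCG and FANCA fell with log2 fold changes of -2.37, -2.32, -2.29 and -2.10, while FANCF, which lies in the same complex as FANCG, rose from 89.3 and 96.1 to 162 and 167 normalised counts (0.83).

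**Figure D5:**
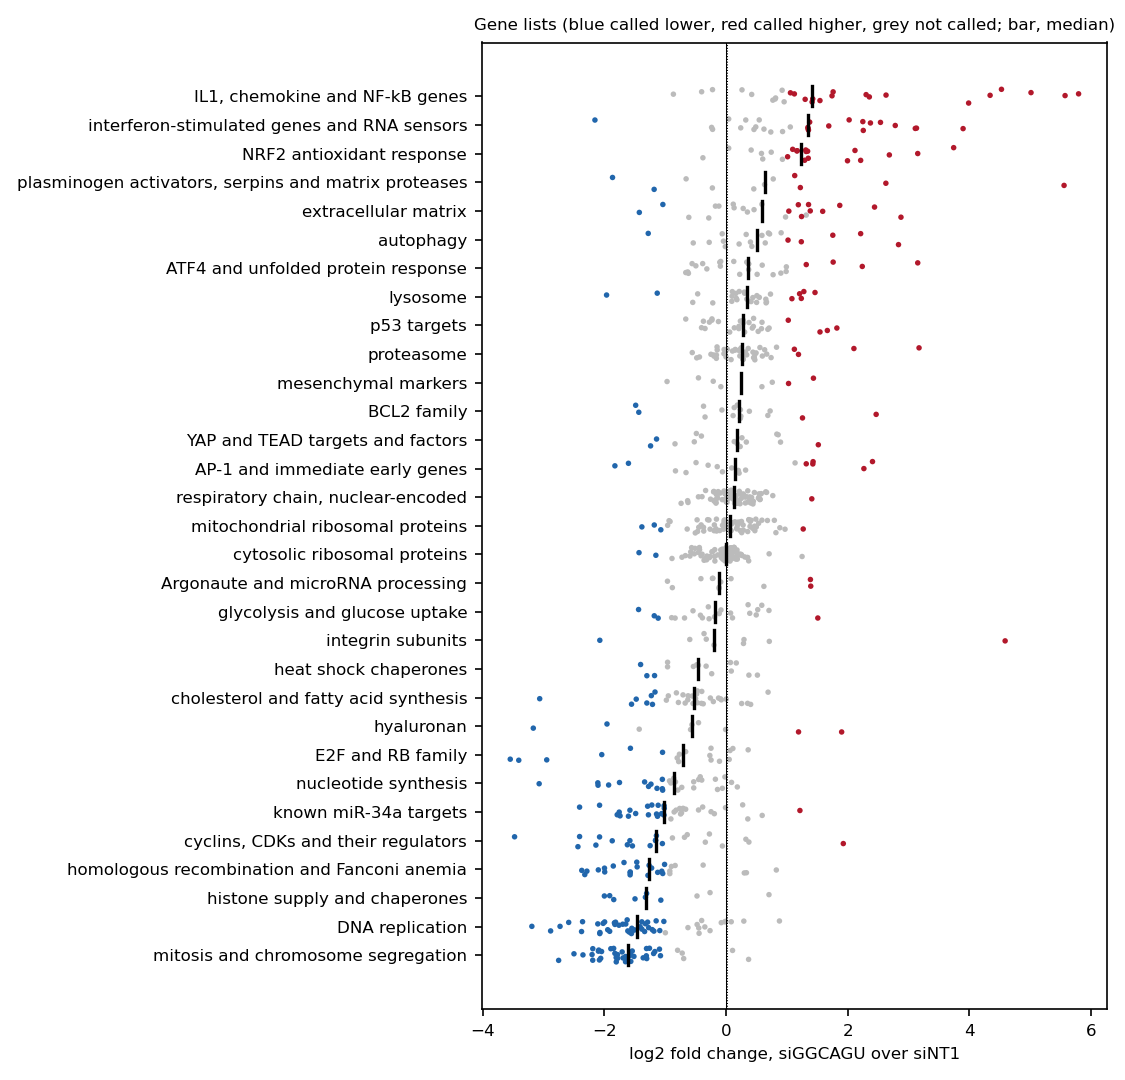
Log2 fold change of siGGCAGU over siNT1 (horizontal axis) of the members of each gene list with at least 8 genes tested (vertical axis), each point a gene, blue for called lower, red for called higher and grey for not called, with a bar at the median. Mitosis (-1.61) and DNA replication (-1.46) lie lowest, and the lists of cytokine (1.41) and interferon-stimulated genes (1.34) highest.

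Promoters of the gene lists were searched for short words of known factors on both strands. The window ran from 250 bases before to 50 after the start (RefSeq, GRCh38.p14). Of the 12430 protein-coding genes tested 81.8% had a promoter in the table. Of the genes called higher and lower fewer than 80% had one (77.6% and 79.8%), so a comparison of those sets is void. Some of the lists with more are given as a description. The E2F words TTTCGCGC or TTTGGCGC were in 10 of 44 DNA replication promoters (22.7%) and in 2.17% of the promoters of genes tested. They were in 4 of 16 promoters of the E2F and RB family and 2 of 26 of homologous recombination. Other lists that fell lacked them, with 0 of 25 nucleotide synthesis, 0 of 37 mitosis and 0 of 10 histone supply promoters. The CHR word TTTGAA, which MuvB complexes bind in late cell cycle genes, was in 25 of 37 mitosis promoters (67.6%), beside 9.91%. The kB word GGANTTTCC was in 9 of 23 promoters of the list of interleukin 1, chemokine and NF-kB genes (39.1%), called the cytokine list here, beside 1.68%. That list was written from general knowledge to hold NF-kB genes, so its share of kB words is not independent of its making. Of all 27305 promoters in the table, 1.18%, 15.4% and 1.64% held these words. The AP-1 word TGANTCA was in 3 of the 23 cytokine promoters (13.0%), in 4.48% of the promoters of genes tested and in 7.76% of all promoters. CCAAT was in 62.2% of the mitosis promoters, 56.8% of the DNA replication promoters and 34.8% of the cytokine promoters, beside 37.0% of the promoters of genes tested and 35.7% of all promoters. None of the words contains another, and a match does not show that a factor was bound. Stretches from the called genes of each list with the largest changes, a mean normalised count of at least 1000 and the word are printed on the strand of the gene with the word in capitals.
MCM3, E2F word: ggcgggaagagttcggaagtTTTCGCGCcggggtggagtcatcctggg
MCM2, E2F word: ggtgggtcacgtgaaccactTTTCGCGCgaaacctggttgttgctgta
CDCA8, CHR word: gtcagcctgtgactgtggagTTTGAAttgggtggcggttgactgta
NCAPD2, CHR word: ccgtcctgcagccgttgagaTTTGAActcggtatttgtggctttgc
CXCL8, kB word: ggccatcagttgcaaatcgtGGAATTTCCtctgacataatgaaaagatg
CXCL2, kB word: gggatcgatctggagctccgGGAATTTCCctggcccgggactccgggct
They lie at chr6:52284719-52284766 (minus), chr3:127598393-127598440 (plus), chr1:37692473-37692518 (plus), chr12:6493937-6493982 (plus), chr4:73740458-73740506 (plus) and chr4:74099244-74099292 (minus). CDCA8, of the chromosomal passenger complex, NCAPD2, of condensin, and the chemokine CXCL2, which were named for their promoters after their values were seen, were at -2.08, -1.83 and 2.36 on the log2 scale, all called.

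Inflammatory cytokines are made when NF-kB and AP-1 factors are activated, and interleukin 1 itself activates them. Of 27 genes of interleukin 1, chemokines and NF-kB 17 were called higher (63.0%, beside 10.7% of all genes), with a median of 1.41. The chemokine CCL20 was at 813 and 734 normalised counts with siGGCAGU and 13.3 and 14.2 with siNT1, a log2 fold change of 5.79 ± 0.2 (adjusted p = 1.03e-11). ICAM1, to which leukocytes adhere, was at 797 and 682 against 15.5 and 15.3, a log2 fold change of 5.57 ± 0.16 (adjusted p = 3.64e-12). IL1A, IL1B and CXCL8 are given above. The cytokine IL11 went the other way, from 674 and 849 to 413 and 425 normalised counts (-0.86), and the NF-kB subunit NFKB1 fell with a log2 fold change of -0.40. Leukocyte markers had at most 6 reads, and which cells the cytokine transcripts came from was not tested.

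Interferon-stimulated genes respond to signals from sensors of foreign RNA. Of 27 tested 14 were called higher and 1, IFI44L, lower (55.6% called, against 20.3% of all genes tested), with a median of 1.34. IFIT1, which binds foreign RNA ends, was at 471 and 346 normalised counts against 22.2 and 31.1, a log2 fold change of 3.90 ± 0.22 (adjusted p = 9.91e-10). IFIT2, IFIT3 and IFI6 rose by 3.13, 2.25 and 2.02, and in each both siGGCAGU libraries lay above both controls. IFI44L, named after its values were seen, had 1.25 and 7.09 normalised counts with siGGCAGU and 14.8 and 28.4 with siNT1. EIF2AK2 (-0.24), the kinase PKR that double-stranded RNA activates, did not pass.

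Of 46 proteasome genes 26 rose and 4 fell at an adjusted p below 0.05, and the median was 0.26. Of the list 4 were called, all higher (8.7%, below the 20.3% called of all genes tested). The called genes belong to the immunoproteasome and its activator, which interferon induces. PSMB8 was at 517 and 499 normalised counts against 119 and 117 (adjusted p = 5.36e-10). PSME1 and PSMB10 rose by 1.19 and 1.12, and the other called gene, named after its values were seen, was PSMB9 (3.17). PSME2 rose by 0.83.

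Antioxidant genes that NRF2 switches on rose together. Of 22 genes 15 were called higher (68.2%, beside 10.7% of all genes), with a median of 1.23. SLC7A11, which takes up cystine for glutathione, was at 29893 and 26716 normalised counts against 3194 and 3179.9, a log2 fold change of 3.15 ± 0.098 (adjusted p = 4.86e-12). The adaptor SQSTM1 was at 17064 and 15013 against 3450.0 and 3468, a log2 fold change of 2.21 ± 0.11 (adjusted p = 2.24e-10). AKR1C1 and OSGIN1 rose by 2.68 and 2.12. HMOX1, heme oxygenase, fell with a log2 fold change of -0.38, and TKT (0.04) did not pass. Genes of amino acid and unfolded protein stress gave 4 called higher of 26 and none lower (15.4% called, against 20.3% of all genes tested), with a median of 0.36, and 7 were called without siNT1 replicate 1. DDIT3, ATF3 and DDIT4, the last named after its values were seen, rose by 2.24, 1.32 and 1.76, while XBP1 and TRIB3 were at -0.63 and -0.56. TRIB3 did not pass without siGGCAGU replicate 2 (adjusted p = 0.0547).

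Autophagy and lysosome genes were called in both directions. Of 20 autophagy genes 5 were called higher and 1 lower (30.0%, against 20.3% of all genes tested), with a median of 0.51. GABARAPL1 was at 3116 and 2711 normalised counts against 349 and 464, the receptor OPTN rose by 1.76 and WIPI1 by 1.24, and ATG9A fell with a log2 fold change of -1.28. Of 29 lysosome genes 5 were called higher and 2 lower (24.1%, near that background), with a median of 0.34. ATP6V1A, of the proton pump, and the protease CTSL rose by 1.46 and 1.24, whereas GRN, progranulin, fell from 1089 and 866 to 253 and 248 normalised counts (-1.96).

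p53 targets and the BCL2 family were called at shares on either side of the 20.3% of all genes tested. Of 29 p53 targets 4 were called higher (13.8%), with a median of 0.28. TP53INP1, SPATA18 and TP53I3 rose by 1.67, 1.54 and 1.02, GDF15, named after its values were seen, by 1.82, and SESN2 fell with a log2 fold change of -0.66. CDKN1A, the p53-induced inhibitor of CDKs, named after its values were seen, was at 6204 and 5349 normalised counts against 6868 and 7075, a log2 fold change of -0.27 ± 0.096 (adjusted p = 0.0265). Among 16 BCL2 family genes 2 were called higher and 2 lower (25%), with a median of 0.21. BCL2A1 and BAK1 rose by 1.26 and 0.73 and PMAIP1 by 0.69, and the other calls, BMF (2.47) and BCL2L11 (-1.43), were named after their values were seen. With genes of a mean count of at least 50 the calls were 2. BCL2 fell from 185 and 130.0 to 57.4 and 54.6 normalised counts, and BCL2L1 (0.19) did not pass.

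The surface and matrix of the cells changed in both directions. Of 23 extracellular matrix genes 9 were called higher and 2 lower (47.8% called), with a median of 0.59. The laminin LAMA3, the collagen crosslinker LOX and thrombospondin THBS1 rose by 2.88, 1.87 and 1.59. Tenascin TNC fell from 7324 and 5431 to 2589.8 and 2170.0 normalised counts (-1.42), and PLOD1, which modifies collagen, fell with a log2 fold change of -1.04. In the list of plasminogen activators, serpins and matrix proteases 4 of 11 were called higher and 2 lower (54.5% called), with a median of 0.63. The activators split, with PLAU, urokinase, at 1292 and 1649 normalised counts against 5562 and 5180.5 (-1.86) and PLAT, the tissue activator, at 434 and 370.2 against 193 and 174 (1.13). SERPINE2, an inhibitor of both activators, rose by 2.63. Of 9 integrin subunits 2 were called (22.2%, near the 20.3% of all genes tested). ITGB8 was called higher, at 339 and 317 against 14 and 13.1, and ITGA6 lower, at 7264 and 7022 against 29305 and 30796, with a median of -0.20 that was 0.04 without siGGCAGU replicate 2. In the hyaluronan list, HAS2 and the receptor HMMR were called lower and the degrading enzyme CEMIP2 (1.19) and HAS3 (1.90, named after its values were seen) higher among 9 genes with a median of -0.56. The share of this list called was 44.4%.

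Factors of growth signalling showed mixed directions. Of 15 YAP and TEAD genes AMOTL2 (-1.24) and AXL (-1.14) were called lower and CCN2 (1.52) higher, a share near the 20.3% of all genes tested, with a median of 0.19, and CCN1 fell with a log2 fold change of -0.84. Of 18 AP-1 and immediate early genes 5 were called higher and 2 lower (38.9%), with a median of 0.15. IER3, DUSP4, JUNB and DUSP6 rose by 2.41, 2.27, 1.43 and 1.43, and KLF4 and FOSL1 fell with log2 fold changes of -1.82 and -1.60.

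Genes of lipid synthesis, glycolysis and protein folding were called at shares near the 20.3% of all genes tested. In cholesterol and fatty acid synthesis 7 of 34 were called lower (20.6%) and 24 fell and 3 rose at an adjusted p below 0.05, with a median of -0.52. HMGCS1, the synthase before HMG-CoA reductase, SREBF2, the factor that drives these genes, and SCD, a desaturase, fell with log2 fold changes of -1.55, -1.47 and -1.30, and STARD4 rose by 0.69. Of 23 glycolysis genes 3 were called lower and 1 higher (17.4%), with a median of -0.19. PFKFB3, TPI1 and LDHA fell with log2 fold changes of -1.44, -1.18 and -1.11, and the glucose transporter SLC2A3 rose by 1.51. Of 15 heat shock chaperones 3 were called lower, HSPA1B, HSPB1 and HSPA1A, with a median of -0.45 and 5 calls with no filter, and HSPA1A and HSPA1B share sequence.

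Few genes of the cytosolic ribosome were called. Of 80 genes 2 were called (2.50%, against 20.3% of all genes tested), and leaving out a library gave between 1 and 4. The median was -0.0027, and 21 fell and 4 rose at an adjusted p below 0.05. RPS12 was at 15167 and 15463 normalised counts against 36228 and 46240.0 (-1.43), and RPL36A fell with a log2 fold change of -1.15. Of 78 mitochondrial ribosomal proteins 4 were called (5.13%), with a median of 0.06, and 7 without siGGCAGU replicate 2. MRPS2, MRPL3 and MRPS12 fell with log2 fold changes of -1.38, -1.18 and -1.07 and MRPS33 rose by 1.27. Of 79 nuclear-encoded respiratory chain genes 1 was called, NDUFA13 (1.27% of the list), with a median of 0.14, and 2 without siGGCAGU replicate 2. The 13 protein genes of the mitochondrial genome are listed at 0 in all libraries and were not analysed here.

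To ask where the response differed from that to another toxic seed, siGGCAGU was set against siGGGGGC at 48 h, which uses the same siGGCAGU libraries and none of the siNT1 libraries. Of 16905 genes 3881 (23.0%) were called, 2171 (12.8%) higher and 1710 (10.1%) lower with siGGCAGU. CDC25A was at 168 and 132 normalised counts with siGGCAGU and 2020.5 and 1957 with siGGGGGC, a log2 difference of -3.75 ± 0.12 (adjusted p = 4.64e-12). OSGIN1, which rose against siNT1, was at 12391 and 13157 with siGGGGGC, a log2 difference of -3.20 (adjusted p = 3.43e-12). H2AX, the histone of DNA breaks, ZNF367, a zinc finger gene, FOSL1, an AP-1 subunit, and ENSG00000279602 were lower with siGGCAGU, at log2 differences of -3.14, -3.11, -3.06 and -2.92. In the other direction SERPINB2 was at 95.9 and 67.1 normalised counts with siGGGGGC, near its siNT1 level, a log2 difference of 5.62 (adjusted p = 2.68e-12). FN1, fibronectin, was at 26442 and 24065 with siGGCAGU and 1208 and 1337 with siGGGGGC, a log2 difference of 4.31 (adjusted p = 4.27e-12). IL1B, SLC16A6 and the transglutaminase TGM2 were higher with siGGCAGU by 3.97, 3.93 and 3.56.

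By list, the cell cycle genes were lower with siGGCAGU than with siGGGGGC. Of the mitosis genes 29 of 45 were called lower in this comparison, with a median log2 difference of -1.11, and of the DNA replication genes 26 of 52 (-1.03), with POLD4 higher (1.49). Among cyclins, CDKs and regulators 13 of 23 were lower (-1.14) and CCND2 higher (3.08), and among known miR-34a targets 13 of 36 were lower (-0.78) and 2 higher. The 2 higher targets were AXL (1.78) and CD274 (1.59). The matrix genes were higher with siGGCAGU, 12 of 23 (1.14). The NRF2 genes went the other way, with 6 of 22 lower (-0.45), among them SQSTM1 at 17064 and 15013 normalised counts with siGGCAGU and 51521 and 50390.0 with siGGGGGC. AKR1C1 did not pass, with 7267 and 6981 normalised counts for siGGCAGU and 7824 and 7009 for siGGGGGC, a log2 difference of -0.06 ± 0.11 (adjusted p = 0.686). In the cytokine list 10 of 27 were higher and 3 lower (0.38), the 3 being IL11, BIRC3 and NFKBIE, and POLD4, CCND2, BIRC3 and NFKBIE were named after their values were seen.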

How the data were processed

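RNA-seq of total RNA after ribosomal RNA depletion, paired-end, was analysed in 10 libraries of HeyA8 cells. Per the methods, the authors trimmed reads with Trimmomatic, aligned them to hg38 with TopHat or STAR and counted exonic reads per Ensembl gene with htseq. The strand setting and the aligner used for these libraries are not given in the sources used here. The deposited files hold raw counts for 58395 genes. The authors' 4 tables of comparisons hold mean normalised counts, fold changes and p-values and were not used.

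Genes were kept with filterByExpr, and edgeR 4.0.16 (R 4.3.3, TMM normalization) fitted all libraries in 1 model of 5 groups, with 5 residual degrees of freedom. Its quasi-likelihood test gave p-values, which were adjusted after Benjamini and Hochberg. A gene was called at an adjusted p below 0.05 and a log2 fold change beyond 1. Normalised counts are scaled to the geometric mean of the effective library sizes. Errors after ± are standard errors of the log2 fold change unless SD is named. Annotation came from GENCODE release 44. The test was run on simulated counts first.

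Named genes were the 12 largest changes each way against siNT1 at a mean normalised count of at least 1000, up to 4 each way in a list at 100, the 8 falls with an 8mer at 200 and 6 each way against siGGGGGC, with every member of the known target and Argonaute lists. Some genes that this rule selects are not reported here. The comparison, the 37 gene lists and the rules were chosen with earlier results of these data known. Alternatives were RLE and upper-quartile scaling, 2 count filters, DESeq2 1.42.0, limma-voom (limma 3.58.1), fewer libraries in the fit, a replicate block, glmTreat, and leaving out each library. Robust dispersion was added after seeing the data.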

Additional observations from a re-analysis of the deposited data

How the results depend on the processing

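Counts of called genes stayed within 1.5 times under other scalings, DESeq2, limma-voom, fewer libraries in the fit, no filter, robust dispersion and an adjusted p below 0.01. A filter on the mean count (50 or more) gave 2013 called against siNT1 (968 higher, 1045 lower) and 2288 against siGGGGGC (1313 and 975), with fewer genes tested. Testing against a log2 fold change of 1 with glmTreat gave 1542 (852 and 690) and 1787 (1055 and 732). Leaving out 1 library gave between 3257 and 3401 calls against siNT1 (1707 to 1750 higher, 1516 to 1653 lower) and between 3638 and 3868 against siGGGGGC (2021 to 2179 higher, 1602 to 1689 lower).

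Whether the replicate numbers pair wells is not stated. The correlation of replicate differences between groups was between -0.09 and 0.03, which cannot show how the wells were laid out. With the replicate block 3399 genes were called against siNT1, 3849 against siGGGGGC, and the seed shift was -0.126. The seed shift was between -0.0927 and -0.1802 without 1 library, the latter without siNT1 replicate 2. It was -0.15 in the shortest 3′ UTRs, -0.12 with the filter at 50 and -0.09 with the trend on length and GC removed.

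Over the named genes 3677 alternative values kept their direction and side of the threshold and 10 changed sign, all in genes that did not pass. Without 1 library, AGO1 lay between -0.2642 and 0.0955, AGO2 between -0.1862 and 0.3891, CSF1R between -0.0971 and 0.7067, SNAI1 between -0.5487 and 0.2483, TNRC6C between -0.3729 and 0.1503 (0.025 without siGGCAGU replicate 2) and MDM4 between -0.0606 and 0.0339 (0.0102 without siNT1 replicate 2). MDM4 was 0.0139 with upper-quartile scaling and 0.0036 with the filter at 50. In 92 alternatives a named gene no longer passed and in 8 a named gene passed newly. The causes were not tested. Low counts limit the genes of few reads, such as LEF1 and PDGFRB.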

Other observations

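The calls were also counted by gene class, with no test between classes. Over all genes tested 10.7% were called higher and 9.62% lower. Of 2267 lncRNA genes tested 355 were called higher and 227 lower, with a median log2 fold change of 0.05. Of 127 snoRNA genes 25 were called lower and 4 higher, with a median of -0.20. Of 54 genes annotated as miRNA precursors 15 were called lower and 5 higher, with a median of -0.48. Which transcripts the reads at precursor loci came from was not tested. Of 1634 pseudogenes 139 were called lower and 85 higher, with a median of -0.03, and their reads may be shared with their parent genes. In 12430 protein-coding genes the split was 1316 higher and 1190 lower, with a median of 0.03.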
